A study of Mus musculus with 9 samples.

Results

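The genes described here are Saraf and the core components of store-operated calcium entry: Saraf, Stim1, Stim2, Orai1, Orai2, Orai3, Atp2a2 and Itpr1. These 8 genes were listed by name, each was represented by its brightest probe set carrying a single gene symbol, and 7 of them were measured among 19938 genes in all. Itpr1 had no such probe set and was not analysed here. The list was built around Saraf, which was chosen by its measured difference from the control, lower with 1 of the 2 hairpins against Apela, so the Saraf values are given as a description without a test. The other 6 measured genes were listed for their function, with earlier results of these data known, and were tested.

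RNA levels were read on Affymetrix arrays from the mouse embryonic stem cell line R1E, kept in serum and leukemia inhibitory factor, a cytokine that holds the cells undifferentiated. All cells were transduced with a lentivirus coding for a short hairpin RNA. The sample titles name no drug, and whether any was given is not known here. The control hairpin was directed at luciferase, an insect enzyme that mouse cells lack (shLuc), and the other hairpins at Apela, which encodes a short secreted ligand of the apelin receptor (shApela_1 and shApela_2). Each of these 3 groups had 3 arrays. Whether the repeats were separate cultures or infections is not stated in the labels, so the p-values measure the spread between these arrays, which may be technical. The sources used here give neither the sequences of the hairpins nor how long after infection the RNA was taken.

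Store-operated calcium entry refills the endoplasmic reticulum after its calcium has been released. Inositol trisphosphate receptors let calcium out of this store, the STIM proteins sense the loss from within the membrane of the endoplasmic reticulum and open ORAI channels in the plasma membrane, and the SERCA pumps return calcium to the store. SARAF, a membrane protein of the endoplasmic reticulum once called TMEM66, binds STIM1 and promotes the slow inactivation of this entry, which protects cells from calcium overload. Many of these proteins are controlled by calcium and by binding each other, which RNA levels do not report.

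Levels are log2 values after the authors' normalization, and a difference of 1 is a factor of 2 in signal. Levels of different genes are not compared, because each probe set has its own response. Apela was lower on every array of both hairpin groups (means of 11.30, 9.70 and 9.72 in shLuc, shApela_1 and shApela_2). All 10 embryonic stem cell markers examined, Pou5f1 and Nanog among them, lay above the median of the table (7.06), with means from 10.09 to 12.82. The third shApela_2 array stood apart from the rest, with a median of 7.12 against 7.03 to 7.07 and an interquartile range of 3.29 against 3.50 to 3.59.

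Saraf measured 8.10, 8.33 and 8.19 on the shLuc arrays, in the order of replicate numbers. With shApela_1 the levels were 7.30, 7.31 and 7.38. With shApela_2 they were 8.29, 8.36 and 8.001. The 3 shApela_1 arrays lay far below the other 6. The gap was 0.62, between the highest shApela_1 array (7.38) and the lowest of the others (8.001). The ranges of shLuc (8.10 to 8.33) and shApela_2 (8.001 to 8.36) overlapped, and that of shApela_2 was wider at both ends.

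The group mean of Saraf was 8.21 ± 0.12 in shLuc (SD, n = 3), against 7.33 ± 0.04 in shApela_1 and 8.22 ± 0.19 in shApela_2. The difference of shApela_1 from shLuc was -0.88 (SE 0.09), which left 54.5% of the control signal. The difference of shApela_2 from shLuc was 0.01 (SE 0.09), or 101% of the control signal. Between arrays of equal replicate number, shApela_1 differed from shLuc by -0.80, -1.03 and -0.81, and shApela_2 by 0.19, 0.03 and -0.18. Without the third shApela_2 array, which held the lowest Saraf level of its group, the difference of shApela_2 from shLuc was 0.12, and leaving out each array in turn gave values from -0.06 to 0.12.

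Among all genes, the shApela_1 difference of Saraf was the 4th most negative, after those of Apela (-1.60), Smc1b (-1.01) and Lef1 (-0.93) and before that of Meioc (-0.80). From shApela_1 to shApela_2, Saraf had the 2nd most positive difference of all genes (0.89, SE 0.09), between Smc1b (1.34) and Lef1 (0.87). These ranks describe the values by which Saraf was chosen. The genes beside Saraf in rank were named after their values were seen. Because the arrays measured RNA from whole cultures, fewer cells with Saraf RNA and less of it per cell cannot be told apart.

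Markers of other cell types were examined beside Saraf in 5 lists (fibroblast feeder, endoderm, mesoderm, neuroectoderm and trophectoderm), and 0 of their 33 measured members passed the limma test with either hairpin, where 0.336% of all genes passed with shApela_1 and 0.015% with shApela_2. Above the median of the table lay 5 of 8 fibroblast feeder, 3 of 8 endoderm and 1 of 5 mesoderm markers. The same held for 3 of 6 neuroectoderm and 3 of 6 trophectoderm markers. The mean level of the 6 trophectoderm markers ran from 7.71 to 7.87 on shLuc arrays and from 7.40 to 7.75 on shApela_1 arrays. On the shApela_2 arrays it ran from 7.71 to 7.87. The shApela_1 range extended lower and overlapped the control range. The lowest shApela_1 list mean also lay below the lowest of shLuc for endoderm (6.58 against 6.65), mesoderm (6.50 against 6.54) and neuroectoderm (6.87 against 6.93), and by less for fibroblast feeder (7.086 against 7.090). The highest shApela_2 list mean lay above the highest of shLuc for fibroblast feeder (7.30 against 7.12), endoderm (6.80 against 6.71), mesoderm (6.65 against 6.58) and neuroectoderm (7.13 against 7.02). The shApela_2 ranges include the third array, with its higher median and narrower interquartile range, and its part in them was not tested. The part of these markers in the Saraf difference was not tested.

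**Figure D1:**
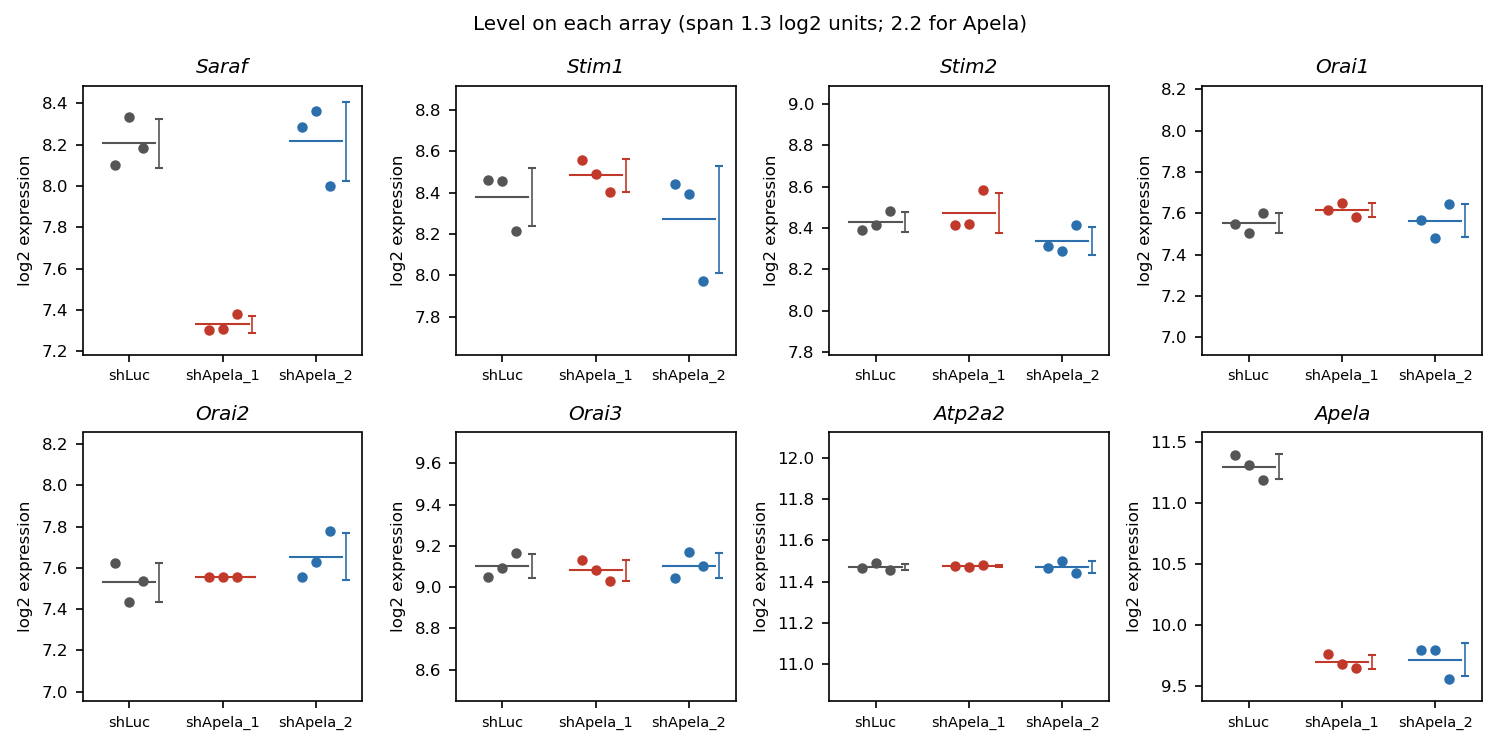
Log2 expression of the 7 measured store-operated calcium entry genes and of Apela on each array. Points are arrays in the order of replicate numbers, horizontal lines are group means and bars are SD (n = 3); each panel spans the same number of log2 units except that of Apela. Saraf is low on the 3 shApela_1 arrays, with a mean of 7.33 against 8.21 in shLuc. Apela is low in both hairpin groups, and the groups of the other 6 genes overlap. Between the hairpins the overlap of Stim2 and of Orai2 is only a shared value.

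None of the other 6 measured genes passed the test in any comparison. With shApela_1 against shLuc 0 of 6 passed limma's test at an adjusted p under 0.05 and 0 of 6 had an unadjusted p under 0.05, where 0.336% and 7.69% of all genes did. With shApela_2 against shLuc, which uses the same 3 control arrays, the counts were again 0 and 0 (0.015% and 5.77% of all genes). Between the hairpins 0 of 6 passed and 1, Stim2, had an unadjusted p under 0.05 (0.948% and 12.9% of all genes). For 0 of the 6 were the arrays of compared groups free of overlap, against 13.7%, 10.3% and 17.6% of all genes in these comparisons. A shared value was counted as overlap. Between the hairpins the arrays of Stim2 and of Orai2 met only at a shared value, 8.42 and 7.55. Adjusted p-values are limma's, by Benjamini-Hochberg over all genes.

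Stim1, the calcium sensor of the endoplasmic reticulum to which SARAF binds, measured 8.46, 8.46 and 8.21 in shLuc, 8.56, 8.49 and 8.40 in shApela_1 and 8.44, 8.39 and 7.97 in shApela_2. The third array was the lowest of its group in all 3 groups, and the groups overlapped. Stim1 differed from shLuc by 0.11 with shApela_1 (95% interval -0.17 to 0.38, adjusted p = 1 in limma). With shApela_2 the difference was -0.11 (95% interval -0.39 to 0.17, adjusted p = 0.766 in limma), and it became 0.04 without the third shApela_2 array (adjusted p = 0.957 in limma). Without the third shLuc array the shApela_1 difference was 0.02. Between the hairpins Stim1 differed by -0.21 (95% interval -0.49 to 0.07, adjusted p = 0.48 in limma), and by -0.06 without the third shApela_2 array. Both intervals against shLuc exclude a difference as large as the -0.88 of Saraf.

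Stim2, the related sensor that responds to smaller losses of stored calcium, measured 8.39, 8.42 and 8.48 in shLuc, 8.42, 8.42 and 8.59 in shApela_1 and 8.31, 8.29 and 8.42 in shApela_2. The third array was the highest of its group in all 3 groups, and exactly the same value, 8.42, stood on 3 arrays, 1 in each group. The differences from shLuc were 0.04 with shApela_1 (95% interval -0.09 to 0.18) and -0.09 with shApela_2 (95% interval -0.22 to 0.04), with adjusted p of 1 and 0.68 in limma. From shApela_1 to shApela_2, Stim2 differed by -0.14 (95% interval -0.27 to -0.0023, adjusted p = 0.378 in limma). This was the smallest p among the 6 genes in that comparison, and it did not pass after adjustment over all genes.

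The ORAI genes encode the pore of the calcium channel in the plasma membrane. Orai1, the channel subunit best known from immune cells, measured 7.55, 7.50 and 7.60 in shLuc, 7.62, 7.65 and 7.58 in shApela_1 and 7.57, 7.48 and 7.64 in shApela_2. It differed from shLuc by 0.06 with shApela_1 (95% interval -0.05 to 0.18, adjusted p = 1 in limma) and by 0.01 with shApela_2 (95% interval -0.10 to 0.13, adjusted p = 0.937 in limma). All 9 arrays lay within a narrow band, and the sign of the shApela_2 difference turned with centred array medians.

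Orai3, a channel subunit found in mammals, measured 9.05, 9.09 and 9.17 in shLuc, 9.13, 9.08 and 9.03 in shApela_1 and 9.04, 9.17 and 9.10 in shApela_2. The differences from shLuc were -0.02 with shApela_1 (95% interval -0.14 to 0.09) and 0.0023 with shApela_2 (95% interval -0.11 to 0.12), with adjusted p of 1 and 0.991 in limma. The arrays of the 3 groups were interleaved, and the sign of the shApela_2 difference turned with centred array medians.

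Orai2, the third channel subunit, had 2 probe sets, and the brighter was used. It measured 7.62, 7.43 and 7.54 in shLuc and 7.55, 7.63 and 7.78 in shApela_2. All 3 shApela_1 arrays and the first shApela_2 array held exactly the same value, 7.55, so the SD of 0 in shApela_1 is no measure of replicate error. Equal values on 4 or more arrays occurred in 13.6% of all probe sets. The differences from shLuc were 0.02 with shApela_1 (95% interval -0.13 to 0.17) and 0.12 with shApela_2 (95% interval -0.03 to 0.27), with adjusted p of 1 and 0.68 in limma. Without the third shApela_2 array the latter was 0.06.

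The dimmer Orai2 probe set, which lay below the median of the table, had group means of 6.68, 6.69 and 6.71 in shLuc, shApela_1 and shApela_2, and also held equal values on 4 arrays. RefSeq's gene table lists a pseudogene of Orai2, Orai2-ps, and the sources used here do not give the positions of the probes. Signal from the gene and from its pseudogene therefore cannot be told apart in either probe set, and the Orai2 level is uncertain.

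Atp2a2, which encodes the SERCA2 pump that refills the endoplasmic reticulum, was the steadiest of the 7 genes across arrays. Its levels were 11.47, 11.49 and 11.46 in shLuc, 11.48, 11.47 and 11.48 in shApela_1 and 11.46, 11.50 and 11.44 in shApela_2. The differences from shLuc were 0.0048 with shApela_1 (95% interval -0.07 to 0.08, adjusted p = 1 in limma) and -0.0014 with shApela_2 (95% interval -0.08 to 0.08, adjusted p = 0.993 in limma). On this probe set the intervals bound a change of either sign at 0.08.

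**Figure D2:**
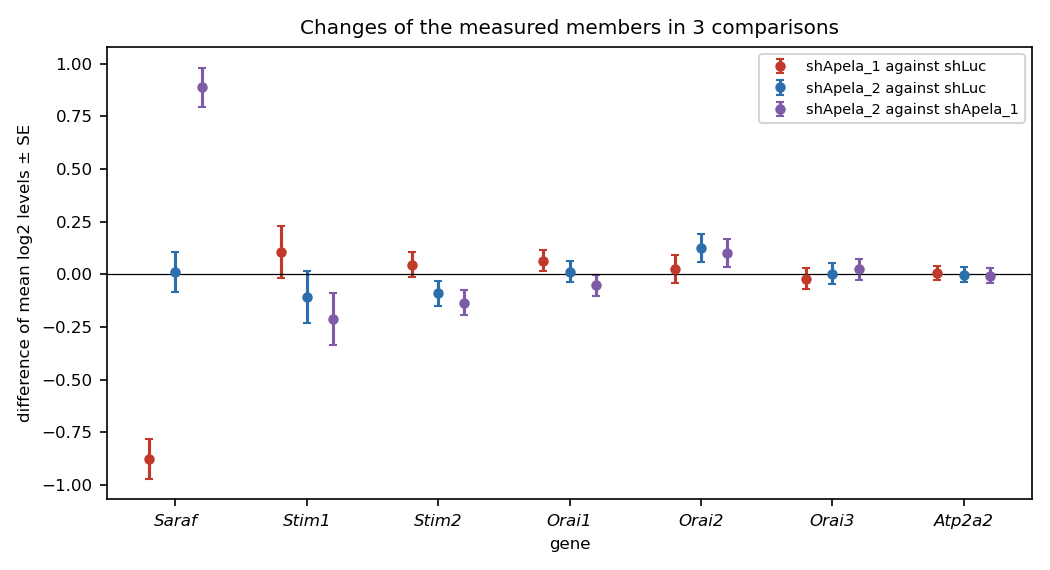
Differences of mean log2 levels for the 7 measured genes in the 3 comparisons; points are limma estimates and bars are their standard errors (n = 3 arrays a group). Saraf lies at -0.88 and 0.89 in the comparisons that include shApela_1 and at 0.01 in shApela_2 against shLuc, while the differences of the other genes lie between -0.21 (Stim1 between the hairpins, -0.06 without the third shApela_2 array) and 0.12.

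The other receptors of the inositol trisphosphate family were read in place of Itpr1, and were named for that reason. Itpr3 measured 9.63, 9.85 and 9.52 in shLuc, 9.69, 9.79 and 9.50 in shApela_1 and 9.39, 9.51 and 9.16 in shApela_2. In every group the second array was the highest and the third the lowest, and all shApela_2 arrays lay below all shLuc arrays. The difference was -0.01 with shApela_1 (adjusted p = 1 in limma) and -0.31 with shApela_2 (95% interval -0.58 to -0.05, adjusted p = 0.68 in limma), neither past the threshold. Without the third shApela_2 array, the difference of shApela_2 from shLuc was -0.22. From shApela_1 to shApela_2 the difference was -0.30 (adjusted p = 0.314 in limma), and this passed when the replicate number was a block (adjusted p = 0.0161 in limma).

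Itpr2 lay below the median of the table, with means of 6.22 ± 0.03 in shLuc, 6.16 ± 0.06 in shApela_1 and 6.24 ± 0.03 in shApela_2 (SD, n = 3). Its differences from shLuc were -0.06 with shApela_1 (adjusted p = 0.944 in limma) and 0.02 with shApela_2 (adjusted p = 0.878 in limma), and the latter changed sign with centred medians.

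The wider calcium-handling machinery was read from 6 lists with 96 genes, of which 89 were measured. In limma 0 of the 89 passed in any of the 3 comparisons, where 0.336%, 0.015% and 0.948% of all genes passed. With the replicate number blocked, 2 of the 89 passed with shApela_1 (Tmbim6 and Plcb3) beside 190 of all genes, and 3 between the hairpins (the same 2 and Itpr3) beside 653 of all genes. With shApela_1 against shLuc 10 of them, or 11.2%, had an unadjusted p under 0.05, where 7.69% of all genes did, and their median difference was 0.02 beside 0.01 for all genes. With shApela_2 against shLuc 5 of them, or 5.62%, had such a p, against 5.77% of all genes, with a median of -0.0001 beside 0.02. Between the hairpins the count was 23, or 25.8%, against 12.9% of all genes, with medians of -0.02 and 0.02.

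Partners of store-operated entry, which tether, recruit or regulate STIM and ORAI proteins, had 14 measured genes. With shApela_1, 13 lay above and 1, or 7.14%, below the shLuc level, where 45.5% of all genes lay below, and 0 of the 14 had an unadjusted p under 0.05. Their median difference was 0.03 beside 0.01 for all genes. With shApela_2, 5 lay above and 9, or 64.3%, below, where 42.4% of all genes lay below, again with 0 at an unadjusted p under 0.05 and a median of -0.04. Stimate, which encodes a membrane protein of the endoplasmic reticulum that helps STIM1 cluster near the plasma membrane, measured 7.67, 7.91 and 7.75 in shLuc and 8.003, 7.88 and 7.91 in shApela_1 (0.15, SE 0.07, adjusted p = 0.741 in limma). Its mean in shApela_2 was 7.73. Ubqln1, a ubiquitin-binding protein reported to bind ORAI1, measured 0.06 (SE 0.04, adjusted p = 0.899 in limma). These groups of arrays overlapped for Stimate and not for Ubqln1.

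Genes of calcium release from the endoplasmic reticulum held the lowest adjusted p of the 89. Tmbim6, also known as BAX inhibitor 1, encodes a membrane protein of the endoplasmic reticulum that lets calcium leak out and limits cell death. It measured 10.44, 10.41 and 10.63 in shLuc, 10.07, 10.07 and 10.18 in shApela_1 and 10.50, 10.41 and 10.64 in shApela_2. As with Saraf, all shApela_1 arrays lay below all others, while the shLuc and shApela_2 arrays shared a range. The shApela_1 difference was -0.39 (SE 0.08, adjusted p = 0.105 in limma) and that between the hairpins 0.40 (SE 0.08, adjusted p = 0.0547 in limma), so neither passed the threshold of 0.05. Once the replicate number was blocked, both passed (adjusted p = 0.0151 and 0.00712 in limma).

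Plcb3, a phospholipase C that makes inositol trisphosphate, had means of 10.20 in shLuc, 9.95 in shApela_1 and 10.21 in shApela_2. Its shApela_1 difference was -0.25 (SE 0.07, adjusted p = 0.258 in limma), and that between the hairpins was 0.26 (SE 0.07, adjusted p = 0.14 in limma). Both passed once the replicate number was blocked (adjusted p = 0.0397 and 0.0179 in limma). Over the 22 measured release genes, 8 lay above and 14, or 63.6%, below shLuc with shApela_1 (median -0.02), where 45.5% of all genes lay below. With shApela_2, 14 lay above and 8, or 36.4%, below (median 0.02), where 42.4% of all genes lay below. An unadjusted p under 0.05 in limma was held by 3 (13.6%) with shApela_1, 4 (18.2%) with shApela_2 and 7 (31.8%) between the hairpins. The shares of all genes were 7.69%, 5.77% and 12.9%.

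Genes of mitochondrial calcium uptake were measured for 10 of 12 listed. Mcu, the pore of the mitochondrial calcium uniporter, measured 8.98, 9.04 and 8.94 in shLuc, 9.17, 9.16 and 9.17 in shApela_1 and 9.03, 9.04 and 8.96 in shApela_2. Its shApela_1 arrays were above all others (0.18, SE 0.04, adjusted p = 0.165 in limma). Micu2, a gatekeeper of this channel, had means of 8.81 in shLuc, 8.58 in shApela_1 and 8.73 in shApela_2 (-0.22 with shApela_1, SE 0.06, adjusted p = 0.204 in limma). The channel and its gatekeeper thus had differences of opposite sign, and neither passed the threshold.

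The calcium-binding proteins of the endoplasmic reticulum, which buffer the store and fold proteins in it, had 13 measured genes. Their median was 0.07 with shApela_1 and -0.0034 with shApela_2, beside 0.01 and 0.02 for all genes. With shApela_1, 4 of the 13, or 30.8%, had an unadjusted p under 0.05 in limma, where 7.69% of all genes did. These were Pdia6, Rcn1, Sdf4 and Nucb1, all higher than in shLuc. With shApela_2 the count was 1, or 7.69%, against 5.77% of all genes. Between the hairpins it was 5, or 38.5%, against 12.9%. Nucb1, a calcium-binding nucleobindin, measured 0.13 with shApela_1 (SE 0.04, adjusted p = 0.289 in limma), and Rcn1, a reticulocalbin, 0.17 (SE 0.05, adjusted p = 0.319 in limma). The chaperone genes Calr and Hspa5 were named after their values were seen, as the best known members. Their differences were -0.02 and -0.0012 with shApela_1 and -0.0034 and -0.0003 with shApela_2, with adjusted p of at least 0.979 in limma.

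Calcium pumps and exchangers had medians of -0.0013 with shApela_1 and 0.05 with shApela_2 over 14 genes. The leading differences with shApela_1 were those of Atp2a3, a SERCA pump (0.17, SE 0.10, adjusted p = 0.824 in limma), and Slc8b1, the mitochondrial sodium-calcium exchanger (0.19, SE 0.14, adjusted p = 1 in limma). In the list of calmodulin, calcineurin and NFAT, which carry a calcium signal to the nucleus, the medians over 16 genes were 0.03 and -0.03. The transcription factor gene Nfatc2 measured -0.13 with shApela_1 (SE 0.06, adjusted p = 0.635 in limma) and Rcan3, an inhibitor of calcineurin, 0.10 (SE 0.06, adjusted p = 0.877 in limma).

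**Figure D3:**
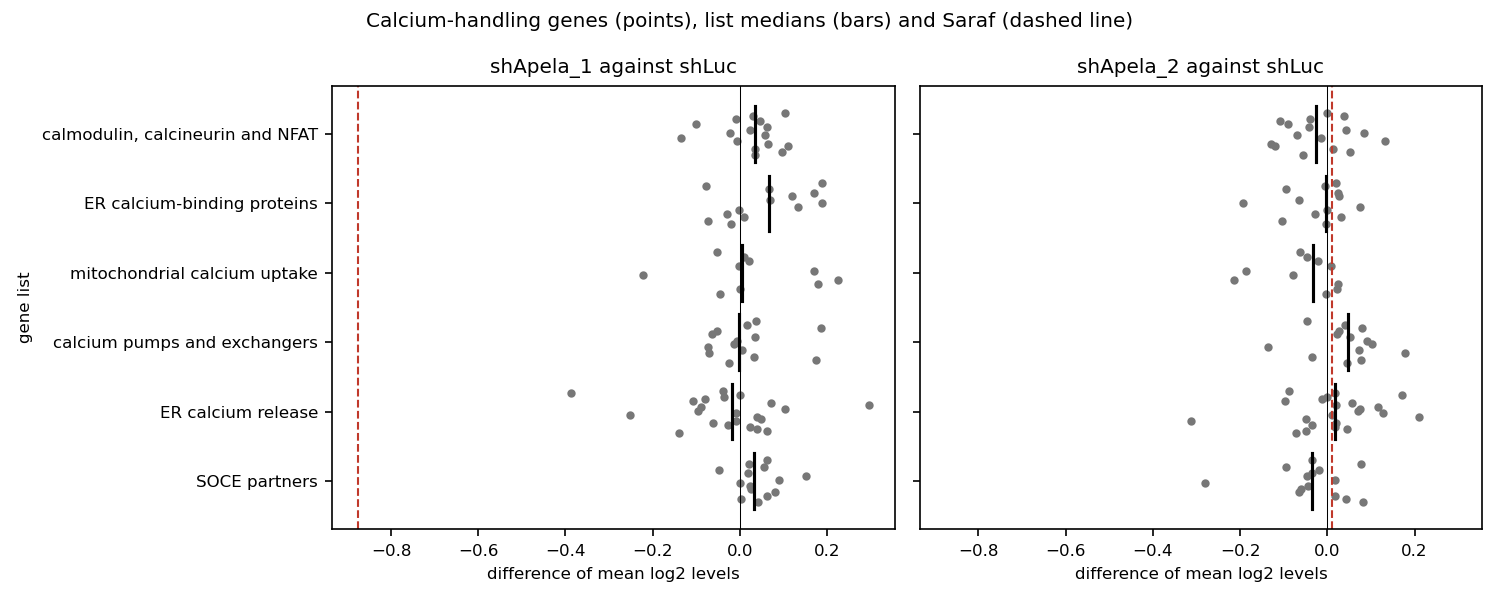
Differences of mean log2 levels from shLuc for the 89 measured calcium-handling genes in 6 lists, with shApela_1 on the left and shApela_2 on the right. Grey points are genes, black bars are list medians and the dashed red line is Saraf, at -0.88 and 0.01; with shApela_1 every listed gene lies between -0.39 and 0.30, to the right of Saraf.

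The genes whose levels followed Saraf most closely over the 9 arrays were Ankle2, a protein of the nuclear envelope (Pearson r 0.990), and Tbc1d20 (0.988). Tbc1d20 encodes a GTPase-activating protein, which turns Rab GTPases off, at the endoplasmic reticulum. Next came the GTPase-like gene Rabl6 (0.987), Abi2, a subunit of the WAVE actin regulator (0.986), and the zinc finger gene Ikzf5 (0.980). The most opposed were Mospd3 (-0.976), Spata2 (-0.975), Epdr1 (-0.970), the nucleotidase gene Nt5c (-0.953) and Mtfp1 (-0.951). The points share their arrays and the step of the shApela_1 group, which sets these coefficients, so they are a description. The genes were picked for this likeness out of 17059 ranked, and no test applies.

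None of these genes differed from shLuc with shApela_1 by as much as Saraf. Rabl6 measured 9.86, 9.95 and 9.87 in shLuc, 9.36, 9.39 and 9.50 in shApela_1 and 9.88, 9.91 and 9.80 in shApela_2, a shApela_1 difference of -0.48 (SE 0.05). That of Tbc1d20 was -0.40 (SE 0.05), and those of Ankle2, Ikzf5 and Abi2 were -0.30, -0.22 and -0.17. Among the opposed genes, Nt5c had the largest shApela_1 difference (0.33, SE 0.04). For the 10 genes the differences of shApela_2 from shLuc lay between -0.04 and 0.05.

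The other members followed Saraf less closely, with r of -0.29 for Stim1, -0.56 for Stim2, -0.66 for Orai1, 0.03 for Orai2, 0.24 for Orai3 and 0.06 for Atp2a2 over the same 9 arrays. Apela, which was low in both hairpin groups where Saraf was low in 1, had an r of 0.49.

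**Figure D4:**
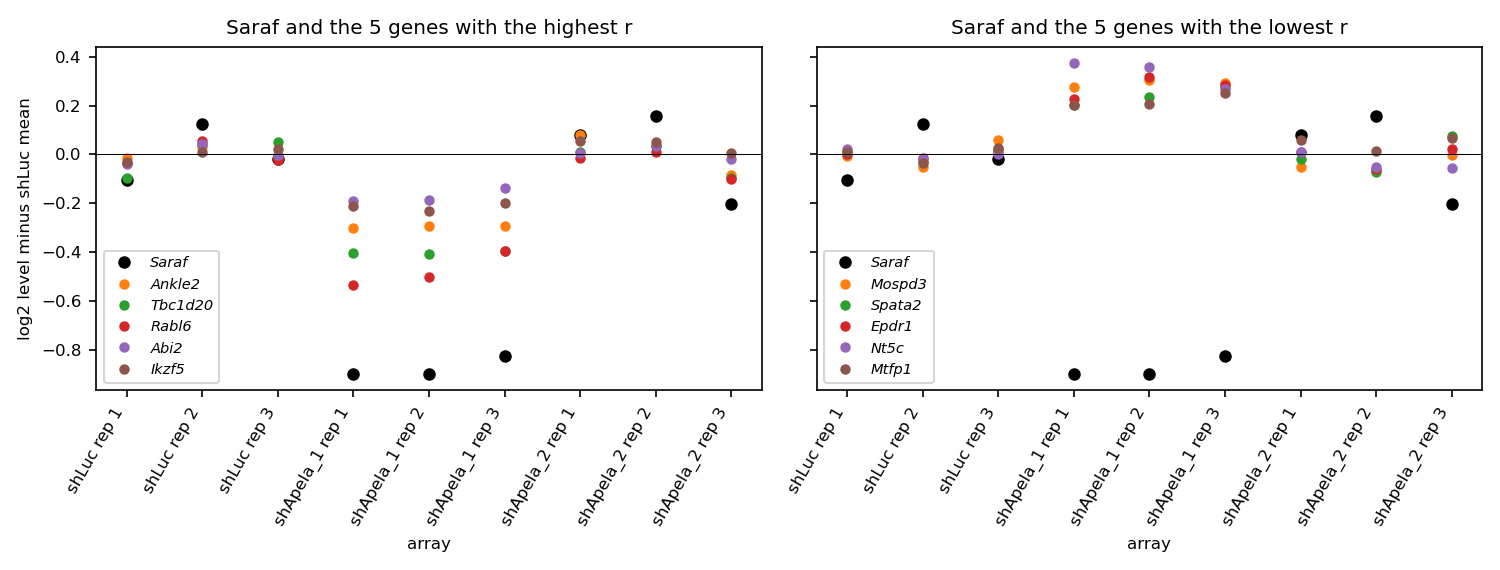
Log2 level minus the shLuc mean on each of the 9 arrays for Saraf (black) with the 5 genes of highest correlation (left) and the 5 of lowest correlation (right). On the 3 shApela_1 arrays the first 5 genes lie below and the last 5 above their shLuc means, all nearer to 0 than Saraf, and on the shApela_2 arrays they lie near 0.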

How the data were processed

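The deposited table holds a normalized log2 level for each probe set on each array. It came from RMA in Partek 6.6, according to the submitters' processing notes. RMA corrects background, quantile-normalizes arrays and summarizes probes, and the sources used here do not give its settings. Base 2 was read from the values, which ran from 3.86 to 13.5. No scanner file was used, and precision is limited by the number of arrays.

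Of 28853 probe sets, 21775 had 1 gene symbol in GEO's platform annotation and were named, while 1578 had several and 5500 had none. RefSeq's table (GRCm38.p6) held 21684 of them and was used for names only.

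All 9 arrays were fitted together with limma 3.58.1 in R 4.3.3 (lmFit and eBayes, two-sided), checked on simulated data. The 3 comparisons share 1 spread estimate with 6 residual and 2.72 prior degrees of freedom. Adjusted p-values are Benjamini-Hochberg over 19938 genes. Intervals are 95% limma intervals for single genes. The named genes are the members, the genes past the threshold in each list or otherwise its 2 smallest p-values with shApela_1, and the 5 most and 5 least correlated with Saraf, predicted genes and small RNAs left out. The members and lists were chosen with earlier results of these data known.

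Deviations from the group mean were correlated between arrays of equal replicate number. The values were 0.44, 0.40 and 0.68 for shLuc with shApela_1 and 0.18, 0.21 and 0.21 between the hairpins. For shLuc with shApela_2 they were -0.01, 0.67 and 0.47. Arrays of unequal number were not correlated, so these values cannot establish that the numbers pair arrays. The main fit used no pairing. The fit with the replicate number as a block applied it to all 3 groups, so its calls rest on a pairing that is not established.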

Additional observations from a re-analysis of the deposited data

How the results depend on the processing

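In 17 alternative settings, 9 of which left out 1 array each, 0 of the 6 tested members passed in any comparison. Over all 19938 genes these settings called 3 to 688 with shApela_1, 2 to 23 with shApela_2 and 19 to 1446 between the hairpins. The Saraf difference of shApela_1 from shLuc stayed between -0.93 and -0.81, and that between the hairpins between 0.81 and 1.01. The difference of shApela_2 from shLuc, near 0, ranged from -0.06 to 0.13 and changed sign. Among 306 values of the other members, 25 changed sign, none of them larger than 0.0402. With array weights Orai3 with shApela_1 became 0.0128, Orai1 with shApela_2 became -0.0264, and Atp2a2 became 0.0143 with shApela_2 and 0.0125 between the hairpins. Centred array medians gave -0.0279 for Orai1 and -0.0383 for Orai3 with shApela_2, and -0.0148 for Orai3 between the hairpins. A second quantile normalization gave 0.0135 for Atp2a2 with shApela_2.

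Leaving out single arrays with shApela_1 gave 0.0234 to 0.1473 for Stim1, -0.0108 to 0.0738 for Stim2, -0.0255 to 0.0692 for Orai2, -0.0481 to 0.0112 for Orai3 and -0.0013 to 0.0136 for Atp2a2. With shApela_2 it gave -0.1939 to 0.0402 for Stim1, -0.0268 to 0.0537 for Orai1, -0.0295 to 0.0348 for Orai3 and -0.0174 to 0.0119 for Atp2a2. Between the hairpins it gave -0.299 to -0.0649 for Stim1, -0.0082 to 0.0539 for Orai3, -0.0221 to 0.0071 for Atp2a2, -0.1814 to 0.0055 for Atp2a3 and -0.2208 to 0.0208 for Slc8b1. For Itpr3 with shApela_1 the range was -0.0823 to 0.0844, with 0.0313 under array weights. Itpr2 with shApela_2 became -0.0501 after a second quantile normalization and -0.021 with centred medians.

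The count of 0 calcium-handling genes with shApela_1 became 2 with the replicate number as a block (Tmbim6 and Plcb3), 1 after a second quantile normalization (Micu2, adjusted p = 0.0272 in limma) and 6 with array weights. Between the hairpins it became 3 with the block (Tmbim6, Plcb3 and Itpr3), 2 after a second quantile normalization (Tmbim6 and Micu2), 1 with an intensity trend and robust prior and 1 without dim genes (Tmbim6 in each), and 11 with array weights. Array weights also raised the count over all genes, from 67 to 688 with shApela_1 and from 189 to 1446 between the hairpins, and the block gave 190 and 653. A second quantile normalization raised these counts to 121 and 261, and the fit without dim genes to 82 and 224. Leaving out 1 array moved them both ways, with 3 to 146 and 19 to 222. The fit of only the arrays compared lowered them to 44 and 28. With shApela_1 centred medians gave 31 and the intensity trend 37. The block changed no other call of a named gene. Leaving out any array gave a count of 0 in these lists, and with shApela_2 against shLuc 0 passed under all 17. In the latter comparison only 2 to 23 of all genes passed under these settings. The cause of these moves was not tested.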
